A study of Mus musculus with 3 samples.

Results

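The mouse genome holds a large family of genes that are named Zfp and a number, for zinc finger protein. Of the 364 protein-coding genes of the GENCODE M21 annotation with such a symbol, Zfp36 left out, 122 had at least 1 full-length transcript isoform in CD4+ T cells, which is 33.5% (95% Clopper-Pearson interval 28.7% to 38.6%). An isoform was given to the gene with which it shared the most splice sites on the same strand, and a gene with at least 1 isoform is called seen. Over all protein-coding genes 6524 of 21951 were seen, or 29.7%. The rule used the symbol and not a measured value.

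The data come from PacBio long-read sequencing of 3 libraries, 1 for each condition, made from spleens and lymph nodes of wild-type male mice. Naive CD4+ T cells were taken before stimulation. The other 2 libraries were made after 48 h of stimulation with anti-CD3 and anti-CD28 antibodies, from cells sorted by the dilution of a dye into a population with no division and a population with 2 divisions. Only CD4+ T cells stimulated in culture were looked at, and no source used here says how many animals went into a library. Each library stands alone, so no test between conditions was possible and every difference is one between 3 libraries. The deposited models give the exons of each isoform on GRCm38 and no read counts. Intervals therefore cover counting error only, isoforms of 1 gene are not independent, and a gene that was not seen may still be transcribed.

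Classical zinc fingers are short folds in which pairs of cysteines and histidines (C2H2) hold a zinc ion, and a row of them reads a stretch of DNA. Many of these proteins start with a KRAB box, which recruits the corepressor TRIM28 and, through it, the histone methyltransferase SETDB1, to silence transposable elements and imprinted regions. KRAB zinc finger genes lie in clusters of related copies, are mostly expressed at low levels, and usually keep the whole finger array in the last coding exon. An mRNA that ends before that exon cannot encode the DNA-binding part.

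The naive library listed 10527 isoforms, the undivided library 12602 and the 2-division library 11109. All 12 CD4 T cell markers were seen in the naive library and 11 in each activated library. Markers of other cells were also present. Of 16 B cell markers 8 were seen in the naive library and 3 in each activated library, with 27, 8 and 7 isoforms. Ighm had 12, 5 and 4 isoforms, whereas Cd79a, Pax5 and Ebf1 had none in any library. Myeloid markers were seen at 2, 1 and 1 of 12 and CD8 T and NK cell markers at 4, 2 and 2 of 10. By the study's methods naive CD4+ T cells were purified with a kit, a step meant to remove such cells, before the RNA was taken or the cells were stimulated. The part of such cells in the naive values below was not tested. A label on the deposited data places the naive library on one sequencing cell and both activated libraries on another. Naive against activated is therefore also 1 sequencing cell against another, and these cannot be told apart. In bulk RNA, fewer cells of a type and less RNA per cell cannot be told apart either.

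Fewer numbered Zfp genes were seen in the 2-division library than in the other libraries. The naive library held 73 of the 364 genes, or 20.1% (16.1% to 24.5%), against 20.3% of all protein-coding genes. The undivided library held 78, or 21.4% (17.3% to 26%), against 24.2%. The 2-division library held 58, or 15.9% (12.3% to 20.1%), against 22.5%. The zinc finger share was thus close to that of all genes in naive cells and lay below it in the 2-division library, where its interval does not reach the value of all genes. The isoforms followed the genes, with 99, 104 and 71 in the same order. Of all isoforms of protein-coding genes these made up 1.13% (0.918% to 1.37%), 0.907% (0.742% to 1.1%) and 0.706% (0.551% to 0.889%). With all ends counted, the intervals of the naive and the 2-division library did not overlap. Without A-rich ends (defined below) 70, 86 and 56 zinc finger isoforms remained, of 6748, 9266 and 8079 of all protein-coding genes. Intervals of these shares were not taken, so whether the gap holds without A-rich ends was not tested. Isoforms of 1 gene are not independent, so the intervals are not a test.

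Among genes with a KRAB box the number was highest in naive cells and lowest in the 2-division library. The box was called by an approximate pattern, hydrophobic and other common residues at KRAB spacing, so that a diverged box counts as none. It was matched in the proteins of 208 of the 364 genes, of which 65 were seen. KRAB genes were seen at 40 in the naive library (19.2%, 14.1% to 25.3%), 35 in the undivided library (16.8%, 12% to 22.6%) and 26 in the 2-division library (12.5%, 8.33% to 17.8%). Of the 156 genes without the box the numbers were 33 (21.2%), 43 (27.6%) and 32 (20.5%). The KRAB numbers were thus ordered from naive to 2 divisions, while the others were highest in undivided cells and near equal in the outer libraries. With isoforms left out that ended before A-rich genome (defined below), 30, 27 and 20 KRAB genes and 23, 37 and 25 other genes remained seen. The intervals of the KRAB genes overlap between the libraries, so a difference in their number was not detectable at this depth.

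**Figure D1:**
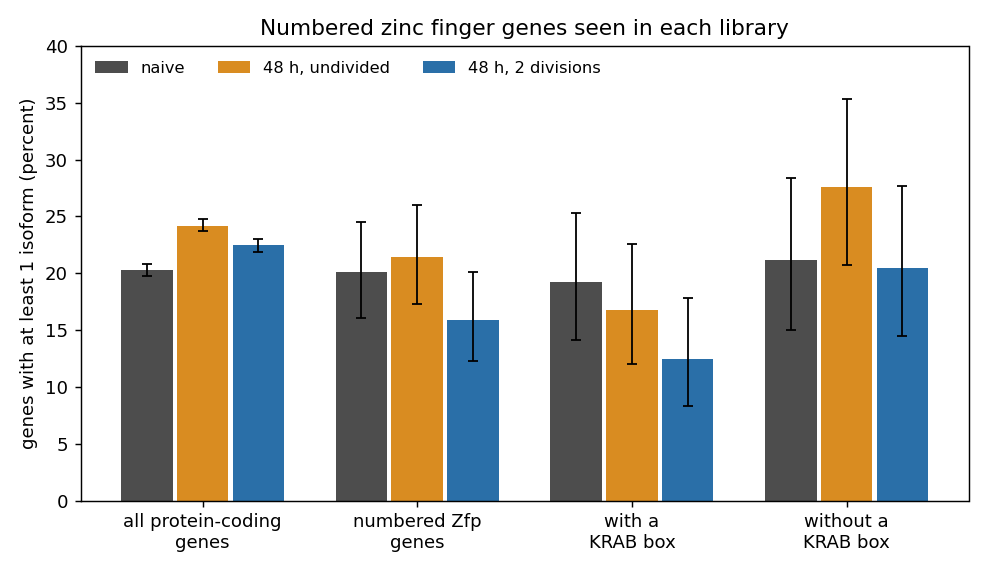
Share of genes with at least 1 isoform (y axis, percent) for all protein-coding genes, the numbered Zfp genes and those with and without a KRAB box (x axis), in the naive library and in both libraries made after 48 h. Each bar is 1 library, with its 95% Clopper-Pearson interval as the error bar, and numbered Zfp genes stand at 20.1%, 21.4% and 15.9%, and all protein-coding genes at 20.3%, 24.2% and 22.5%.

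Genes with 1 to 4 fingers and genes with 10 to 14 fingers were seen in different proportions in undivided cells. There the interval of genes with 1 to 4 fingers (25.1% to 54.6%) lay above that of genes with 10 to 14 fingers (9.22% to 21.8%). The interval of genes with 1 to 4 fingers overlapped those of genes with 5 to 9 (18.1% to 36.4%) and with 15 or more (9.98% to 28.9%). All protein-coding genes stood at 20.3%, 24.2% and 22.5% by library. Of 46 genes with 1 to 4 finger matches, 10 (21.7%) were seen in naive cells, 18 (39.1%) in undivided cells and 12 (26.1%) in the 2-division library. Of 98 genes with 5 to 9 fingers the numbers were 21 (21.4%), 26 (26.5%) and 20 (20.4%). For long arrays the number was highest in naive cells. It was 26 (19.1%), 20 (14.7%) and 14 (10.3%) of 136 genes with 10 to 14 fingers. Of 72 genes with 15 or more it was 14 (19.4%), 13 (18.1%) and 10 (13.9%). Within each class the intervals overlapped between all libraries, so a difference between libraries was not detectable. Over all members the median was 11 fingers and the most 36, and over the members seen 10 and 27. Chromosome 7, which carries 88 of the genes, held 33 of those seen (21, 19 and 16 by library). Chromosome 17 held 14 of its 41 (11, 9 and 6), chromosome 13 held 9 of 31 (5, 7 and 2) and chromosome 4 only 2 of 30 (0, 2 and 1). Shares of all protein-coding genes by chromosome were not taken, so nothing is read from these numbers.

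Most of the genes were seen in some libraries and not in others. All 3 libraries shared 28 of the 122 genes, or 23% (15.8% to 31.4%), against 50.4% of all protein-coding genes seen. In contrast, 22 (18%) were seen only in naive cells, 25 (20.5%) only in undivided cells and 16 (13.1%) only in the 2-division library. Over all protein-coding genes seen these shares were 8.38%, 9.67% and 6.77%. Both activated libraries and not the naive one held 8 (6.56%, against 15.2% of all protein-coding genes seen). Naive and undivided cells alone held 17 (13.9% against 6.35%), and naive cells and 2 divisions alone 6 (4.92% against 3.25%). Of the KRAB genes 10 of 65 (15.4%) were seen in all libraries and 16 (24.6%) only in naive cells. Of the genes without the box these were 18 of 57 (31.6%) and 6 (10.5%), and of all protein-coding genes seen 50.4% and 8.38%. KRAB genes in all 3 libraries were Zfp51, Zfp68, Zfp84, Zfp110, Zfp141, Zfp251, Zfp386, Zfp472, Zfp747 and Zfp871, named here after their values were seen.

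Few isoforms per gene set a limit to such recurrence, and it was therefore also taken over genes with exactly 1 isoform in the first library. Of 52 such zinc finger genes in naive cells, 57.7% (43.2% to 71.3%) were also seen in undivided cells and 46.2% (32.2% to 60.5%) in the 2-division library, against 76.5% and 71.5% of all protein-coding genes with 1 isoform. From undivided cells to 2 divisions it was 39.3% (27.1% to 52.7%) of 61 against 67.6%, and from 2 divisions to undivided cells 58.3% (43.2% to 72.4%) of 48 against 78.1%. Towards the naive library the gap was small. Of the genes with 1 isoform in undivided cells 52.5% (39.3% to 65.4%) were seen in naive cells, against 56.3%, and of those in the 2-division library 54.2% (39.2% to 68.6%) against 59.9%. Over all genes seen, whatever their number of isoforms, 61.6% of the zinc finger genes of naive cells were found in undivided cells and 46.6% in the 2-division library, against 83% and 78.4%.

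The isoforms per gene stayed low. A single isoform was listed for 71.2% (59.4% to 81.2%) of the zinc finger genes of naive cells, 78.2% (67.4% to 86.8%) of those of undivided cells and 82.8% (70.6% to 91.4%) of those in the 2-division library, against 56.3%, 50% and 52.6% of all protein-coding genes seen. The mean was 1.36, 1.33 and 1.22 isoforms per gene against 1.97, 2.15 and 2.04. At least 2 isoforms were listed for 21, 17 and 10 zinc finger genes.

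The member with the most isoforms was Zfp207, on chromosome 11, which encodes a microtubule-binding protein of the kinetochore and spindle (BuGZ). Its isoforms numbered 3 in naive cells, 5 in the undivided library and 3 in the 2-division library. Zfp330, which encodes a cysteine-rich nucleolar protein in which no C2H2 finger was matched, had 2, 3 and 3. Zfp692 had 3, 4 and 1, Zfp655 had 2, 4 and 1, and the KRAB gene Zfp472 had 2, 2 and 3. Zfp68 and Zfp414 had 2 in each library and Zfp62 had 2, 2 and 1. These genes were thus present before and after activation, and their numbers differed by at most 3 isoforms between libraries.

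Zfp143 and Zfp131 stood out among the genes with 5 or more isoforms. Zfp143, on chromosome 7, encodes an activator that binds the promoters of small nuclear RNA genes and of many protein-coding genes. It had 1 isoform in naive cells, which stopped before the end of the coding sequence, and 2 full-length isoforms in each activated library. Zfp131, on chromosome 13, encodes a BTB-domain transcription factor. The naive library held none of its isoforms, the undivided library 3 and the 2-division library 2, and it was the only gene with 2 isoforms in a library among those seen in both activated libraries alone. All 5 of its isoforms ended at position 119765805 on the minus strand, where 17 of the next 20 bases of the genome are A, with a 3′ UTR of 547 nt.

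Of the genes seen in naive cells alone, which counts spliced isoforms, 6 had 2 or more there. Zfp445, which encodes a KRAB protein that maintains imprinted regions, had 3 isoforms, and the KRAB gene Zfp944 had 3. The KRAB genes Zfp942 and Zfp961 had 2 each, and so had Zfp672 and Zfp865, in which no KRAB box was matched. None of the 3 isoforms of Zfp445 followed an annotated chain of introns, and each ended before A-rich genome. A single-exon isoform of Zfp445 that the assignment leaves out was listed in the 2-division library, with its end at 122848957, close to the naive end at 122848954.

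**Figure D2:**
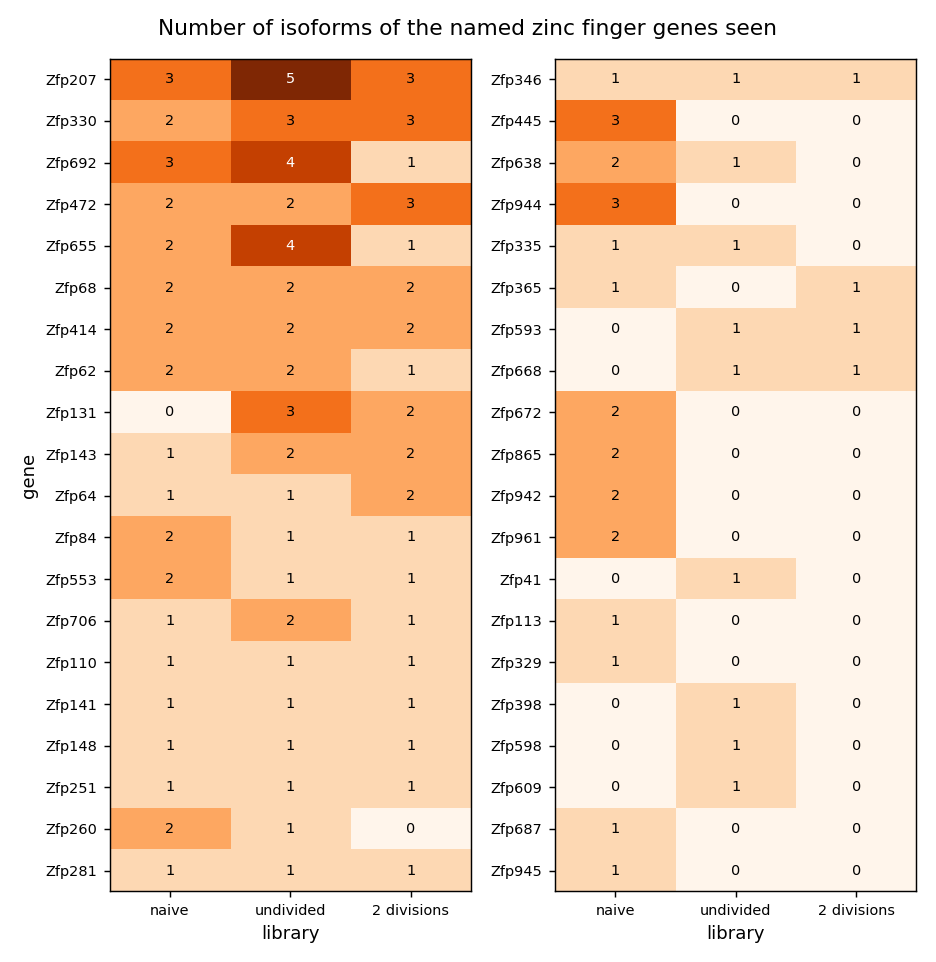
Number of isoforms (colour and printed number) of the 40 named zinc finger genes that were seen (y axis) in each library (x axis), 1 library per condition. Zfp207 leads with 3, 5 and 3, Zfp131 has 0, 3 and 2, and Zfp445, Zfp672, Zfp865, Zfp942, Zfp944 and Zfp961 have spliced isoforms in the naive library alone.

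A list of 31 numbered Zfp genes with a known role was also followed, of which 16 were seen, 11 in naive cells, 14 in undivided cells and 10 in the 2-division library. Of all 364 members 122 were seen (33.5%), with 73, 78 and 58 by library, the same order. The list was chosen with earlier results known, so nothing is read from these counts. The genes at GC-rich promoters, Zfp148 and its relative Zfp281, had 1 isoform in each library, and so had Zfp346, which encodes a protein that binds double-stranded RNA. Zfp335, which T cells need for their maturation, had 1, 1 and 0. Zfp593, which encodes a nucleolar protein of the large ribosomal subunit, had 0, 1 and 1 isoforms, and Zfp598, whose product marks collided ribosomes with ubiquitin, had 0, 1 and 0. Zfp668 had 0, 1 and 1 and Zfp609, whose product associates with the cohesin loader NIPBL, 0, 1 and 0. Zfp687, which encodes a partner of ZMYND8, had 1, 0 and 0, and Zfp638, whose product silences unintegrated retroviral DNA with the HUSH complex, 2, 1 and 0.

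No isoform that shared a splice site was listed for the other 15 of these genes. Among them are the KRAB genes Zfp57, Zfp568 and Zfp809, whose products silence imprinted regions, a placental promoter of Igf2 and retroviral sequences. The others are Zfp91, Zfp106, Zfp217, Zfp292, Zfp318, Zfp326, Zfp384, Zfp407, Zfp592, Zfp622, Zfp644 and Zfp830. Zfp830 has a single exon and so cannot share a splice site, and Zfp106, Zfp292, Zfp568 and Zfp830 had single-exon isoforms, which the assignment leaves out. For the rest no isoform of either kind was listed, which does not show that they were silent.

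The partners of KRAB proteins were also counted. Of 24 genes of the KRAB corepressor and of heterochromatin, 9 were seen in naive cells, 13 in undivided cells and 10 in the 2-division library, with 15, 39 and 26 isoforms. The share of all protein-coding genes seen was likewise lowest in naive cells and highest in undivided cells. Trim28, which encodes the corepressor itself, had 0, 3 and 3 isoforms. Setdb1, which encodes its methyltransferase, had 1, 1 and 0, and Atf7ip, which encodes a partner of SETDB1, 3, 2 and 0. Dnmt1, which encodes the maintenance DNA methyltransferase, had 1, 5 and 4 and Uhrf1, which encodes its cofactor, 0, 6 and 3. The naive library thus listed no isoform of Trim28 but did list Setdb1 and Atf7ip. A relation of these partners to the number of KRAB genes was not tested. Other families with C2H2 fingers showed no shared order. Zbtb genes were seen at 10, 10 and 6 of 40, Zscan and Zkscan genes at 6, 5 and 7 of 27, and Klf genes at 1 of 17 in each library.

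An isoform ended early where its 3′ end lay upstream of the zinc finger exon, the exon of the principal transcript (the one with the longest coding sequence) with the most finger matches. This exon is the last coding exon in 295 of the 352 genes with a match. In naive cells 7 of 96 isoforms ended early, or 7.29% (2.98% to 14.4%), in undivided cells 2 of 101, or 1.98% (0.241% to 6.97%), and in the 2-division library 1 of 67, or 1.49% (0.0378% to 8.04%). Without A-rich ends (defined below) the shares were 2.94%, 1.2% and 1.89%, 5 of the 7 early isoforms of naive cells being A-rich at the end. With isoforms assigned also by exonic overlap they were 13.9%, 4.46% and 1.33%. With the first exon that holds a finger match taken as the finger exon they were 4.17%, 0.99% and 0%. For the background, ends before the last coding exon were counted in the same way in all genes. They made up 12% of the isoforms of protein-coding genes in naive cells, 9.24% in undivided cells and 9.41% in the 2-division library, against 8.08% (8 of 99), 2.88% (3 of 104) and 1.41% (1 of 71) of the zinc finger isoforms. The zinc finger share was thus the lower one in each library. The value of all genes lies inside the zinc finger interval in naive cells (3.55% to 15.3%) and above it in undivided cells (0.599% to 8.2%) and the 2-division library (0.0357% to 7.6%). Most zinc finger isoforms held the whole coding part of the finger exon, with 89.6%, 91.1% and 91%. Both the start and the stop codon were held by 86.9%, 90.4% and 87.1%, against 75.6%, 73.6% and 72.9% over all genes.

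The early ends fall into 2 kinds, with and without A-rich genome behind them. A-rich means here that 12 or more of the 20 genome bases after an end are A, since such a stretch can pair with the oligo(dT) primer inside a transcript. In naive cells 5 of the 7 early isoforms ended before such a stretch. They belong to Zfp143 and to Zfp942, Zfp944 and Zfp945, KRAB genes of chromosome 17. In undivided cells the isoform of Zfp398 did so. The bases that follow these ends on GRCm38 are given, 5′ to 3′ on the strand of the gene, with A in capitals, because they are what the call rests on.
Zfp143, naive, after 110083873, plus strand of chromosome 7: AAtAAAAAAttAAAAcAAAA
Zfp942, naive, after 21939745, minus strand of chromosome 17: AAAAAAAAAAAAAAAAAAAA
Zfp944, naive, after 22342418, minus strand of chromosome 17: AAAAgggAAAAAAAAAgAgA
Zfp945, naive, after 22861727, minus strand of chromosome 17: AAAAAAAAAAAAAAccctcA
Zfp398, undivided, after 47841504, plus strand of chromosome 6: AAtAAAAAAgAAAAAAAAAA
None of these isoforms had AATAAA or ATTAAA, the poly(A) signals searched for, in the 50 nt before its end. The Zfp143 isoform ran over 11 exons and ended inside the gene with a terminal exon of 683 nt, and its chain of introns is not annotated. Zfp143 has finger matches in exons 8 to 12 of its principal transcript, with 2 in exon 11 and 2 in exon 12, and exon 12 was taken. By the first finger exon this isoform was not early, so its end does not exclude the earlier fingers. Zfp942 had 2 such isoforms, with ends 1 nt apart, and an annotated transcript ends at the first of these bases. The isoform of Zfp945 ended 2 nt from an annotated end.

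The other early ends were those of Zfp638 and Zfp64. Zfp638, on chromosome 6, has 1 finger match in exon 2 and 1 in exon 27 of 28, and exon 27 was taken as the zinc finger exon. Of its naive isoforms 1 ended at 83947941 after 8 exons and the other at 83962102 after 16 exons. The isoform of undivided cells ended at the same base, 83962102, so that this end was found in both libraries. Neither end was A-rich, with 7 and 11 A in 20 nt, and the 20 bases after each are given, with A in capitals, because both hold gt, the letters with which most introns start, at or near the end.
Zfp638, after 83947941: gtAAAttgAAtttAgAtgtt
Zfp638, after 83962102: AAAAAggtAAgAAtttAtgA
Zfp64, on chromosome 2, had isoforms that ended past the stop codon at 168925362 or 168925367 in all libraries, and in the 2-division library a further isoform of 1003 nt that ended at 168934821. This end lies 8 nt from an annotated one and short of the exon that holds 6 of the 9 fingers of the principal transcript.

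A few isoforms ended inside the finger exon or at the stop codon itself. Zfp62, with 25 fingers in its last exon, had an isoform in undivided cells and the only isoform in the 2-division library end at the same base, 49216853, before the stop codon, with 10 A in the next 20 nt. Zfp266 had 2 such isoforms in the 2-division library, and Zfp26 had 1 and Zfp609 had 1 in undivided cells. Zfp944 had 1 in naive cells. Zfp148 was the most regular case. Its single isoform ended at 33497342 on the plus strand of chromosome 16 in each of the 3 libraries. This is 1 nt after the last base of the coding sequence, so the models hold only the first base of the stop codon. The A that follow in the genome complete it as TAA, and a poly(A) tail would read the same. An incomplete stop codon in the mRNA is therefore not shown. The last 30 bases and the 20 bases that follow are shown because the genome continues there with a run of 14 A.
Zfp148, up to the end: cagatgccacaactggccagacttttggct
Zfp148, after the end: AAAAAAAAAAAAAAtgtgtA
The nearest annotated end of the gene is 14 nt away. The relative Zfp281 also ended at 1 base in all libraries, 136628252 on chromosome 1, with 17 A in the next 20 nt and 1801 nt short of the nearest annotated end. Its 3′ UTR was 285 nt in each library.

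With all ends counted, the 3′ UTRs of zinc finger isoforms had a higher median than those of all genes in each library. The median was lower in the activated libraries than in naive cells. It was 712.5 nt for the naive library (494 to 852 nt, n = 88 isoforms), 604 nt for the undivided library (454 to 695 nt, n = 98) and 546 nt in the 2-division library (337 to 653 nt, n = 65), with intervals from order statistics. Over all protein-coding genes it was 569.5, 506 and 473 nt. The same order thus held in all genes, and the 3 zinc finger intervals overlap and include the values of all genes. Without A-rich ends the zinc finger medians were 591.5, 607 and 443 nt, so the step from naive to undivided cells was not kept. The 2-division median of 443 nt then lay below the 473 nt of all genes, which was not taken without A-rich ends. KRAB genes had medians of 676, 575 and 444.5 nt and the other genes 729, 607 and 587 nt. Gene by gene, the longest 3′ UTR differed by at most 10 nt in 36 of the 42 genes measured in naive and undivided cells. It was shorter by over 100 nt in undivided cells in 4 genes and longer in 0. Between naive cells and 2 divisions, 21 of 30 genes differed by at most 10 nt, 3 were shorter and 3 longer. From undivided cells to 2 divisions, 30 of 34 genes differed by at most 10 nt, 0 were shorter and 4 longer. The median over all isoforms was nevertheless lower in the 2-division library. These counts by gene were not taken over all protein-coding genes, so nothing is read from their direction.

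**Figure D3:**
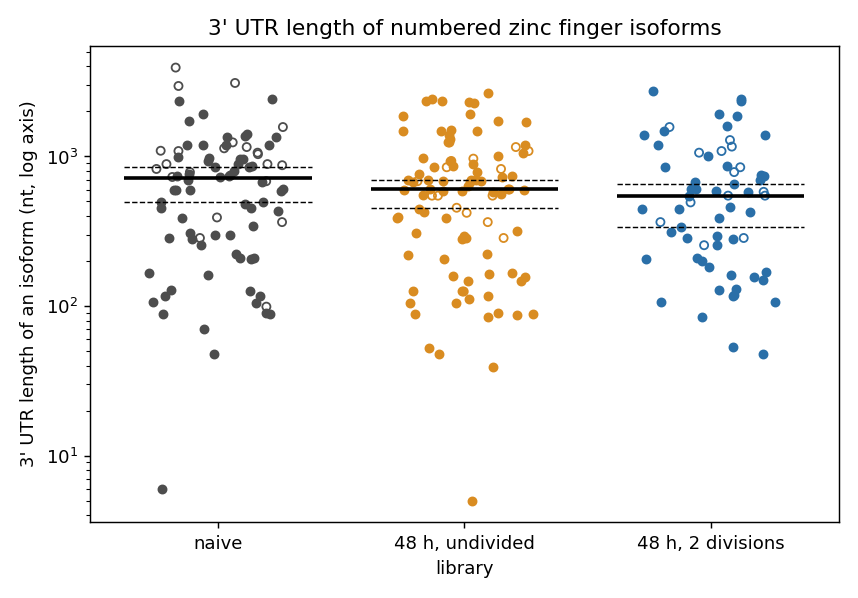
3′ UTR length of each zinc finger isoform that holds the stop codon (y axis, nt, log axis) in the 3 libraries (x axis). Filled points are ends without and open points ends with A-rich genome behind them, solid lines are medians (712.5, 604 and 546 nt) and dashed lines their 95% intervals, which overlap between all libraries.

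The lengths covered a wide range. The longest 3′ UTRs were those of Zfp329 (3929 nt, A-rich end), Zfp113 (3100 nt, A-rich end) and Zfp445 (2960 nt, A-rich end), all in the naive library among spliced isoforms, followed by Zfp365 (2723 nt) in the 2-division library and Zfp41 (2637 nt) in undivided cells. Zfp346 kept a long 3′ UTR in every library, with 2434, 2420 and 2423 nt. At the other end Zfp61 had 6 nt in naive and 5 nt in undivided cells and Zfp386 had 48 nt in each library. Zfp692 had 84 to 90 nt in all 8 isoforms, Zfp414 had 105 or 106 nt in all 6 and Zfp68 119 to 127 nt in all 6. Their isoforms differed upstream of the 3′ end. Zfp593 had 1482 nt in both activated libraries and Zfp668 had 156 nt in both.

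Isoforms of a gene were put into 1 terminal exon family where their last exons start at the same base. Of 43 zinc finger families found in naive and undivided cells, 30 differed by at most 10 nt in mean length, 6 were shorter by over 100 nt in undivided cells (14%, 5.3% to 27.9%) and 2 longer (4.65%, 0.568% to 15.8%). Over all protein-coding genes 13% of 3898 families were shorter and 5.67% longer. Of 30 families in naive cells and in the 2-division library 4 were shorter (13.3%) and 3 longer (10%), against 13.5% and 4.79%. Of 35 families in undivided cells and in the 2-division library 2 were shorter (5.71%) and 6 longer (17.1%), against 8.41% and 6.95%. Each of these backgrounds lies inside the interval of the zinc finger share, which for the last one runs from 6.56% to 33.6%. The comparisons share libraries, and most families hold 1 or 2 isoforms.

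Several genes had tandem ends that were found in more than 1 library. Merging ends within 24 nt of each other, 24 of the 122 genes had several 3′ ends. For ends in genes seen in both libraries, 80.4% (45 of 56, 67.6% to 89.8%) of those of naive cells were found in undivided cells. In the 2-division library 71.4% (30 of 42, 55.4% to 84.3%) of them were found. Of the ends in the 2-division library 86% (37 of 43, 72.1% to 94.7%) were found in undivided cells. These counts were not taken over all protein-coding genes, so whether they are particular to zinc finger genes was not tested. Zfp207 used 3 ends in every library, at about 80395757, 80396137 and 80396247 on the plus strand, with 3′ UTRs of 207, 586 or 587, and 696 or 697 nt. Naive cells had 1 isoform at each end, undivided cells 1, 2 and 2, and 2 divisions 1 at each. Zfp143 ended at 110094797 and 110095387 in both activated libraries, with 3′ UTRs of 423 and 1013 nt and 1 isoform at each. Zfp706, which encodes a short protein with 1 finger, ended at 36999010 on the minus strand of chromosome 15 in every library (1926 nt), and in undivided cells also at 37000619 (317 nt). The 30 bases up to these ends are shown, with AATAAA or ATTAAA in capitals where it falls among them. They are shown because they are where each isoform model ends, and whether the mRNA was cut there was not tested.
Zfp207, 80395757: aaacaggaacttttcctgaagttgcaattt
Zfp207, 80396137: ctgttaaacttcattgtAATAAAatgagac
Zfp207, 80396247: gtccacgtAATAAAactcagttaccaatac
Zfp143, 110094797: gccatcacagAATAAAggatgcaagccttc
Zfp143, 110095387: ttattattgactttgaatacagcagttttt
Zfp706, 36999010: gtgctgtaatgtcttATTAAAgaagatgtt
Zfp706, 37000619: taaagtagtgctttgattttacaacaccgc
At the first Zfp207 end AATAAA lies 28 nt before the end and at the proximal Zfp706 end 26 nt before it, partly or wholly outside the stretch shown. The distal Zfp143 end had neither signal in 50 nt. It is the exact end of an annotated transcript.

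Zfp655, Zfp472, Zfp330 and Zfp110 also differed in their ends between libraries, and some of these ends were found in 1 library only. Zfp655, on chromosome 5, had 3′ UTRs of 852 and 2341 nt in naive cells, of 306, 852, 2341 and 2345 nt in undivided cells and of 2341 nt in the 2-division library. Its distal end was thus present in each library, and the mean length of its terminal exon was 2981.5, 2846 and 3726 nt. Zfp472, on chromosome 17, had 209 and 435 nt in naive cells and 220 and 443 nt in undivided cells. After 2 divisions it had 209, 443 and 678 nt, the last one 2 nt from the annotated end. Zfp330, on chromosome 8, had 607 and 306 nt in naive cells, 607 or 608 nt in all 3 isoforms of undivided cells, and 607, 607 and 255 nt in the 2-division library. Zfp110, which encodes a KRAB protein that binds a neurotrophin receptor, had 1 isoform in each library and another end in each, with 3′ UTRs of 299, 396 and 653 nt. None of these ends was A-rich except that of Zfp330 at 255 nt.

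Other genes with a shift had A-rich genome behind at least 1 of their ends. Zfp84 had 3′ UTRs of 364 and 1185 nt in naive cells and 364 nt in each activated library, where the end at 29777928 is followed by 14 A in 20 nt. Zfp251 had 1376 nt in naive cells and 847 nt in both activated libraries, with 15 A after the shorter end. Zfp553 had 786 and 990 nt in naive cells, 420 nt in the undivided library and 786 nt in the 2-division library, and only its end at 990 nt was not A-rich. Zfp260 had 1036 nt (A-rich) and 1715 nt in naive cells and 1721 nt in undivided cells. For Zfp62 the ends past the stop codon gave 729 nt (A-rich) and 975 nt in naive cells and 974 nt in undivided cells, and its mean terminal exon of 3596, 2754 and 1790 nt was set by the end before the stop codon, which was not A-rich. Zfp141 had 1242 nt (A-rich) in naive cells, 635 nt in the undivided library and 1607 nt in the 2-division library. Without A-rich ends, 3 families were shorter and 1 longer in undivided than in naive cells, and 1 was shorter and 4 longer in the 2-division library.

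Zfp141 and Zfp553 lie far apart on chromosome 7, and an isoform of each ended after the same 30 bases. With Zfp251, whose end shares the 10 bases in capitals, these are shown because their letters are those of the 3′ part of the B1 element, a short repeat with many copies in the mouse genome. This was noticed after the values were seen.
Zfp141, naive, 42473747, minus strand: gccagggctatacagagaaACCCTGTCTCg
Zfp553, naive and 2 divisions, 127237836, plus strand: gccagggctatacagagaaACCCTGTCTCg
Zfp251, undivided and 2 divisions, 76852146, minus strand of chromosome 15: tcagccagggctacatagACCCTGTCTCat
ACCCTGTCTC, on the strand of the gene, stood in the last 30 nt of 2 of 99, 1 of 104 and 3 of 71 zinc finger isoforms (2.02%, 0.962% and 4.23%). Over all protein-coding isoforms it stood in 1.03%, 0.645% and 0.735%. Matches had to be exact. Similar ends, such as those of Zfp617 (71934000, 2 divisions) and Zfp944 (22342418, naive), were therefore not counted. The 10 bases were chosen from the ends shown, which make up 5 of the 6 zinc finger isoforms counted (the other is that of Zfp64 that ended early), so these shares are a description and nothing is read from their difference. Repeat masking of the genome covered at least 15 of the last 30 nt in 40.4% (30.7% to 50.7%), 27.9% (19.5% to 37.5%) and 31% (20.5% to 43.1%) of zinc finger isoforms, against 33.5%, 32.1% and 32.4% over all genes, so that repeats at the end were not more frequent than in other genes beyond counting error.

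**Figure D4:**
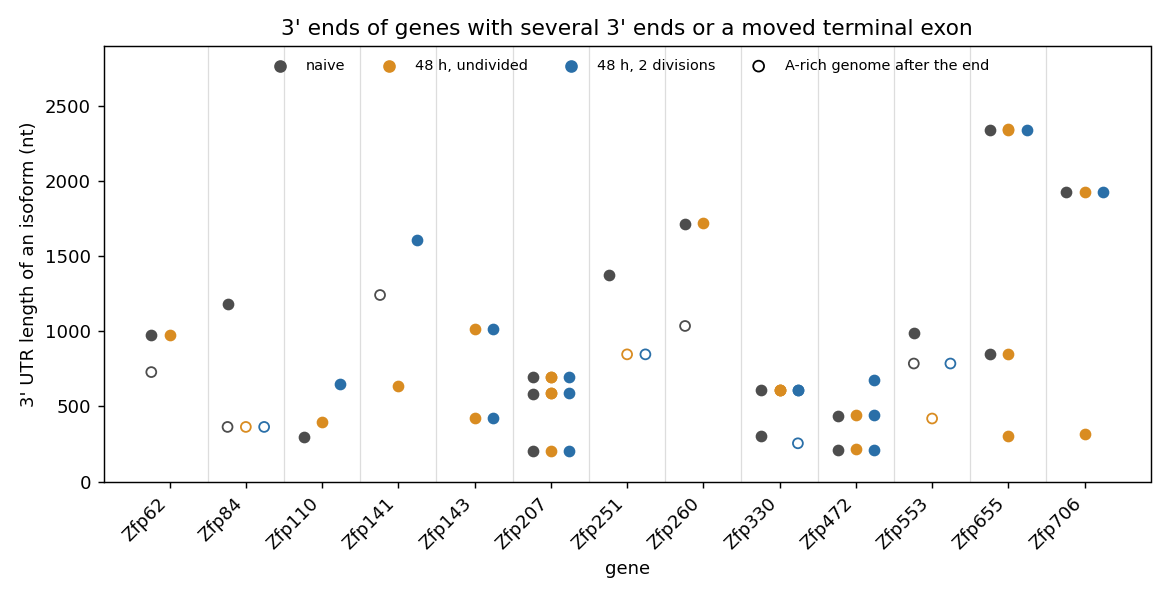
3′ UTR length (y axis, nt) of each isoform of 13 zinc finger genes with tandem ends or a moved terminal exon (x axis), coloured by library, 1 library per condition. Open points are ends with A-rich genome behind them; Zfp207 shows the same 3 ends in each library, Zfp706 an extra end at 317 nt in undivided cells, and the activated points of Zfp84 and Zfp251 are open.

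Other features of the isoforms were compared with those of all genes. The chain of introns was not annotated in 31.3% (22.4% to 41.4%) of zinc finger isoforms in naive cells, 17.3% (10.6% to 26%) in the undivided library and 15.5% (8% to 26%) in the 2-division library, against 38.5%, 37.5% and 36.1% over all genes. For the chain, the value of all genes lies inside the zinc finger interval in naive cells and above it in both activated libraries. A-rich genome followed 29.3% (20.6% to 39.3%), 17.3% (10.6% to 26%) and 21.1% (12.3% to 32.4%) of ends, against 23%, 19.2% and 19.7%. A poly(A) signal stood before 56.6% (46.2% to 66.5%), 71.2% (61.4% to 79.6%) and 69% (56.9% to 79.5%), against 68.3%, 69% and 69.3%. In naive cells the value of all genes lies above the zinc finger interval for the signal, and in the activated libraries inside it. Ends lay within 24 nt of an annotated transcript end of the gene in 57.6%, 61.5% and 64.8% of isoforms, against 68.2%, 65.8% and 65.4%. Zinc finger isoforms had a median length of 2655, 2444.5 and 2350 nt with a terminal exon of 1921, 1758 and 1702 nt, against terminal exons of 789, 671 and 634 nt over all genes. The part of the A-rich ends in the early ends and in the lengths of naive cells was measured only as given above, by leaving them out.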

How the data were processed

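The authors sequenced full-length cDNA of each sample on a PacBio Sequel instrument. By their methods, ccs gave consensus reads, lima removed primers, and isoseq3 kept and clustered reads with a poly(A) tail. The clusters were mapped by pbmm2 and collapsed by isoseq3, and SQANTI3 made the corrected isoform models. The submitters' notes also name minimap2, Subread, mm10 and GRCm38. The deposited values are exon start and end positions, with no counts, so the depth in reads is unknown and numbers of isoforms stand in for it.

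Positions were set against GRCm38 and GENCODE M21, whereas the authors name a later release. No isoform reached past a chromosome end, and 98.2% of 68209 introns ran from GT to AG. Of the introns of members, 570 of 597 were annotated. Isoforms were assigned by shared splice sites, with ties going to protein-coding genes and then to the larger exonic overlap, so single-exon isoforms were left out. Near-identical KRAB copies can take each other's reads in mapping, and this was not tested. Each gene was described by the protein-coding transcript with the longest coding sequence. A finger is a cysteine, 2 to 4 residues, a cysteine, 12 residues, a histidine, 3 to 5 residues and a histidine. A 3′ UTR is the exonic length after the stop codon. Shares have exact Clopper-Pearson intervals at 95%, and medians have order-statistic intervals.

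The members, gene lists and rules were chosen with earlier results of these data known. The text names the 10 genes with the most isoforms, genes with at least 2 isoforms seen in naive cells or in both activated libraries alone, genes with an early end or a moved family, the 5 longest 3′ UTRs, 31 genes with a known role, and a few others (such as Zfp26, Zfp61, Zfp266 and Zfp386) chosen after their values were seen. Sequences were read from the genome of GRCm38. The code was tested on simulated isoforms. Python 3.11.15, numpy 2.4.6, scipy 1.17.1, pysam 0.24.0 and matplotlib 3.10.9 were used.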

Additional observations from a re-analysis of the deposited data

Results flagged for a closer look

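Single-exon isoforms that overlapped exons of numbered Zfp genes and shared no splice site with them were used in no comparison. There were 12 in naive cells, 11 in undivided cells and 9 in the 2-division library, each on another gene of its library. A-rich genome followed 8, 7 and 3 of them, and 8, 6 and 5 lay in genes that were not otherwise seen in that library. They include Zfp830 in both activated libraries, Zfp106 and Zfp568 in the 2-division library and Zfp292 in undivided cells, all genes without a spliced isoform. Those of Zfp281 in both activated libraries ended at the same base as its spliced isoforms. That of Zfp445 in the 2-division library ended close to the distal end of a spliced isoform of naive cells.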

How the results depend on the processing

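No paired analysis was possible because each condition has 1 library. For the same reason no library could be left out. Genes with at least 2 isoforms numbered 21, 17 and 10 (naive, undivided, 2 divisions), of which 9, 4 and 4 had a KRAB box and 12, 13 and 6 had none. Without A-rich ends the share of early ends in naive cells was 2.94%, and with the first exon that holds a finger as the finger exon the share in the 2-division library was 0%. Assigning isoforms also by exonic overlap gave 13.9% early ends in naive cells. Of families in undivided against naive cells, 3 were shorter with the longest terminal exon and 3 without A-rich ends, and 1 was longer at a difference over 200 nt, 0 with the longest terminal exon and 1 without A-rich ends. In the 2-division library against naive cells 1 was shorter without A-rich ends, and against undivided cells 1 was shorter in each of these settings. Numbers of genes with and without a KRAB box were recomputed after seeing the data. Of 72 values recomputed under the alternatives, the other 52 moved by less than their counting interval or by less than 1.5 times. The number of genes seen was 53, 64 and 45 without A-rich ends and 81, 84 and 63 by exonic overlap, with the lowest number in the 2-division library each time.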
